A study of Mus musculus with 48 samples.

Results

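Gastrocnemius muscle of corticosterone-treated mice that kept the nondiabetic label was set against the same muscle of vehicle-treated mice, both on the control diet. The corticosterone group, Cort_CON_ND, held the 5 of 14 corticosterone, control-diet libraries that the submitters marked as nondiabetic, and the vehicle group, EtOH_CON, held all 10 vehicle, control-diet libraries, 15 of the 48 libraries of the series. All mice were male C57BL6J with no genetic change named. Cort_CON_ND mice drank water with corticosterone at 100 ug/ml for 2 weeks and EtOH_CON mice drank water with 1% ethanol; the labels do not say if ethanol was in the corticosterone water. The other groups of the series were the 9 corticosterone, control-diet libraries marked diabetic (Cort_CON_Db), 14 libraries from corticosterone mice whose food also held the ATGL inhibitor atglistatin at 571 mg/kg (Cort_ATGLi), and 10 from vehicle mice on that food (EtOH_ATGLi). ATGL, the product of Pnpla2, starts the breakdown of stored triglyceride. Ages are not given, and each library is taken as 1 mouse, which the labels do not state. The p-values of genes weigh a difference against the spread between libraries, estimated from all 48 libraries in 5 groups. The assay was Lexogen QuantSeq, which counts fragments at the 3′ end of polyadenylated transcripts, so a count does not grow with transcript length. Levels are given in CPM, counts scaled to a common library size, and means are given with the SD over the libraries of a group (n = 5 for Cort_CON_ND and n = 10 for EtOH_CON).

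Corticosterone is the main glucocorticoid of mice. It binds the glucocorticoid receptor, which moves to the nucleus, binds DNA at glucocorticoid response elements and raises some genes and lowers others. In skeletal muscle, glucocorticoids are known for protein breakdown through FoxO transcription factors and muscle ubiquitin ligases, for opposing insulin, for moving fuel use toward fatty acids, and for damping inflammation and connective tissue synthesis. Chronic exposure can bring on diabetes, and the label that defines the group refers to that outcome.

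Fed glucose in the Cort_CON_ND mice, as the labels give it with no unit, read 141, 145, 134, 242 and 131 for libraries p29, p32, p33, p36 and p49, against 113 to 146 with a median of 134 in EtOH_CON. Of the 5, 4 lay inside the vehicle range, and p36 at 242 lay above it and just under the lowest Cort_CON_Db value of 254. Glucose goes with the label that chose the mice and was not compared between the groups by a test. Insulin, again with no stated unit, read 38.5, 14.5, 9.31, 38.7 and 27.7 in Cort_CON_ND in the same order of libraries, against 1.19 to 3.46 with a median of 2.39 in EtOH_CON. Every Cort_CON_ND value lay above every vehicle value: the means were 25.7 ± 13.5 (SD, n = 5) and 2.42 ± 0.705 (SD, n = 10), and the difference of 23.3 had a 2-sided exact permutation p of 0.000333, the smallest that 3003 splits can give. The lowest insulin of the 5 was that of p32 and p33, and the highest that of p29 and p36.

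**Figure D1:**
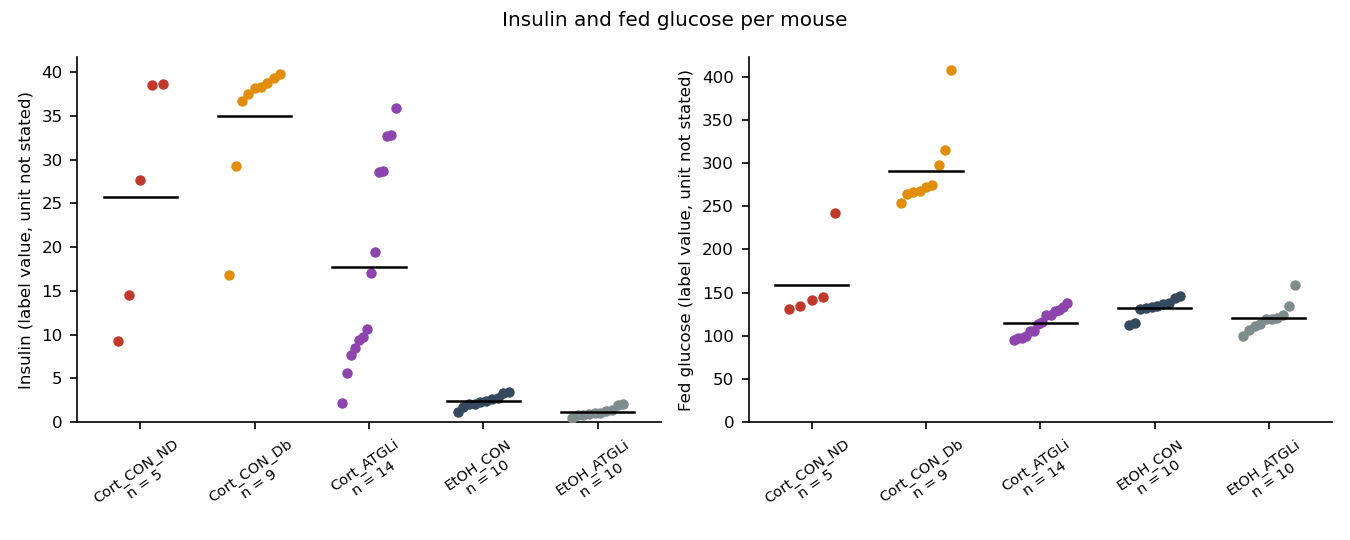
Fed glucose and insulin as the labels give them (vertical axes, units not stated), 1 point per mouse, in the 5 groups, with a line at each mean. Insulin of the 5 Cort_CON_ND mice runs from 9.31 to 38.7, above all 10 EtOH_CON mice at 1.19 to 3.46, while 4 of the 5 glucose values lie among the EtOH_CON values.

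The libraries held 11576776 to 14578882 counts in Cort_CON_ND and 12259500 to 20316002 in EtOH_CON, with 22.8% to 26.1% and 22.7% to 28.3% of counts on mitochondrial genes. Muscle fibre genes, which define the labelled tissue, were abundant in both groups: the summed level of 10 of them was 120200 to 143700 CPM in Cort_CON_ND and 100800 to 129400 CPM in EtOH_CON, and 4 of the 10 rose and 1 fell. On the first principal component of all 48 libraries (28.3% of the variance), Cort_CON_ND libraries scored 11.5 to 26.5 and EtOH_CON libraries -44.8 to -31.5. Vehicle library p01 stood apart from its group, with a median correlation of 0.9517 to the other vehicle libraries where each of those had at least 0.9723. Without p01 the calls numbered 2814, of which 2615 were among the 2856 made with it. Libraries of 1 group differed by more than sampling noise in every pair.

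Of 12592 genes tested with edgeR's quasi-likelihood test, 1380 (11%) rose and 1476 (11.7%) fell in Cort_CON_ND relative to EtOH_CON at a Benjamini-Hochberg adjusted p under 0.05, and 851 of them changed at least 2-fold, 305 up and 546 down. All adjusted p-values given for this comparison come from that test over those 12592 genes, and the median log2 fold change over all of them was -0.000504. The shares of 11% risen and 11.7% fallen are the background for each count of list members below. In 475 genes (3.77%) all 5 Cort_CON_ND libraries lay above all 10 vehicle libraries, and in 525 (4.17%) they lay below. By size among the more abundant genes, the largest rises were in Lcn2, Pnmt, Mt2, Cdkn1a, Gnmt, Mt1, Fkbp5, Fibin, Ddit4, Pik3r1, Kcnf1 and Odf3l2. The largest falls were in Cilp2, H2-Ab1, H2-Aa, H2-Eb1, Cd74, Col1a1, Dbp, Nmrk2, Col15a1, Tnmd, Col1a2 and Col3a1, which are genes of collagen and tendon matrix, antigen presentation, the clock and nicotinamide metabolism. The 5 corticosterone libraries were not alike in extent: p32 and p33 were the 2 highest in 348 of the 1380 risen genes (25.2%), against 13.6% of all genes tested, and the 2 lowest in 290 of the 1476 fallen genes (19.6%), against 15.3%. Those are the mice with the lowest insulin, and the part of either in the other was not tested. Without p32 and p33, 900 genes rose and 959 fell, and 1684 of the 2856 calls were kept. No other pair was left out, so a loss from having fewer libraries cannot be told apart from one particular to this pair. By other measures p29 stood farther out: on the first principal component it scored 26.5, p32 24.8 and p33 22.1. Without p29 alone 2341 genes were called, against 2380 without p32 alone and 2415 without p33 alone. Without p36, the mouse with a glucose of 242, 2513 genes were called.

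Among 33 listed genes of the glucocorticoid receptor and its direct targets, 32 were tested, 24 rose and 1 fell (median log2 fold change 1.46), and 20 rose without p32 and p33. Their summed level was 4035 to 8435 CPM in Cort_CON_ND and 1010 to 2053 CPM in EtOH_CON. The receptor itself, Nr3c1, averaged 45.8 ± 6.63 CPM in Cort_CON_ND and 50.4 ± 7.27 CPM in EtOH_CON (adjusted p = 0.373) and was not called. Fkbp5, a co-chaperone that holds the receptor in a low-affinity state and is induced by it (chromosome 17, 28399094 to 28517527, reverse strand, GRCm38), measured 276, 445, 442, 366 and 227 CPM in the Cort_CON_ND libraries, against 18.8 to 37.9 CPM with a median of 27.3 in EtOH_CON (log2 fold change 3.61, SE 0.18, adjusted p = 6.17e-21). The groups were far apart, with p32 and p33 the highest, and no gene tested had a smaller adjusted p. Pik3r1, which encodes a PI3-kinase regulatory subunit, measured 133, 185, 215, 263 and 185 CPM in the Cort_CON_ND libraries, against 7.21 to 27.1 CPM with a median of 20.1 in EtOH_CON (log2 fold change 3.33, SE 0.25, adjusted p = 3.56e-14). Here p36 was the highest of the 5 and p29 the lowest, and all 5 were above vehicle. Cdkn1a, an inhibitor of cyclin-dependent kinases, measured 208, 604, 627, 378 and 223 CPM in the Cort_CON_ND libraries, against 12.6 to 29.96 CPM with a median of 24.3 in EtOH_CON (log2 fold change 4.2, SE 0.36, adjusted p = 1.59e-12); p32 and p33 were close to 3 times p29 and p49. Foxo1, which switches on fasting and atrophy genes, measured 138, 229, 221, 176 and 144 CPM in the Cort_CON_ND libraries, against 19.1 to 27.1 CPM with a median of 24 in EtOH_CON (log2 fold change 2.95, SE 0.20, adjusted p = 4.1e-16), again with no overlap.

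Other canonical targets moved less or overlapped. Tsc22d3, which encodes the anti-inflammatory protein GILZ, measured 234, 295, 286, 282 and 246 CPM in the Cort_CON_ND libraries, against 122 to 253 CPM with a median of 156 in EtOH_CON (log2 fold change 0.73, SE 0.11, adjusted p = 1.69e-06), and vehicle library p12 reached into the corticosterone range. Klf9, a Krüppel-like repressor, measured 492, 533, 572, 544 and 654 CPM in the Cort_CON_ND libraries, against 79.98 to 455 CPM with a median of 342 in EtOH_CON (log2 fold change 0.74, SE 0.17, adjusted p = 0.000953). Its groups did not overlap, but vehicle library p01 was far under the other 9. Klf15, a regulator of amino acid and lipid use, measured 20.4, 48.2, 42.7, 25.4 and 22.6 CPM in the Cort_CON_ND libraries, against 9.48 to 21.8 CPM with a median of 12.3 in EtOH_CON (log2 fold change 1.16, SE 0.21, adjusted p = 4.69e-05); without p32 and p33 its log2 fold change was 0.67 (adjusted p = 0.0517). Ddit4, or REDD1, which restrains mTOR, was uneven, at 18.7, 552, 398, 209 and 44.2 CPM in the Cort_CON_ND libraries, against 4.74 to 106 CPM with a median of 14.5 in EtOH_CON (log2 fold change 3.36, SE 0.62, adjusted p = 5.37e-05). Library p32 exceeded p29 by more than an order of magnitude, and the p29 and p49 values lay inside the vehicle range. Per1, Sgk1, Cebpb, Cebpd, Zbtb16, Sesn1 and Rgcc also rose, by 1.06, 0.79, 1.21, 2.6, 1.87, 1.88 and 1.91 on the log2 scale. The listed target that fell was Cited4, a transcriptional coactivator, at 8.92 ± 0.965 CPM in Cort_CON_ND and 32.3 ± 8.28 CPM in EtOH_CON (log2 fold change -1.85, SE 0.21, adjusted p = 1.72e-09). The acute targets Dusp1, a MAP kinase phosphatase, and Nfkbia, the NF-kappaB inhibitor, had log2 fold changes of -0.17 (adjusted p = 0.659) and 0.45 (adjusted p = 0.136) and were not called.

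**Figure D2:**
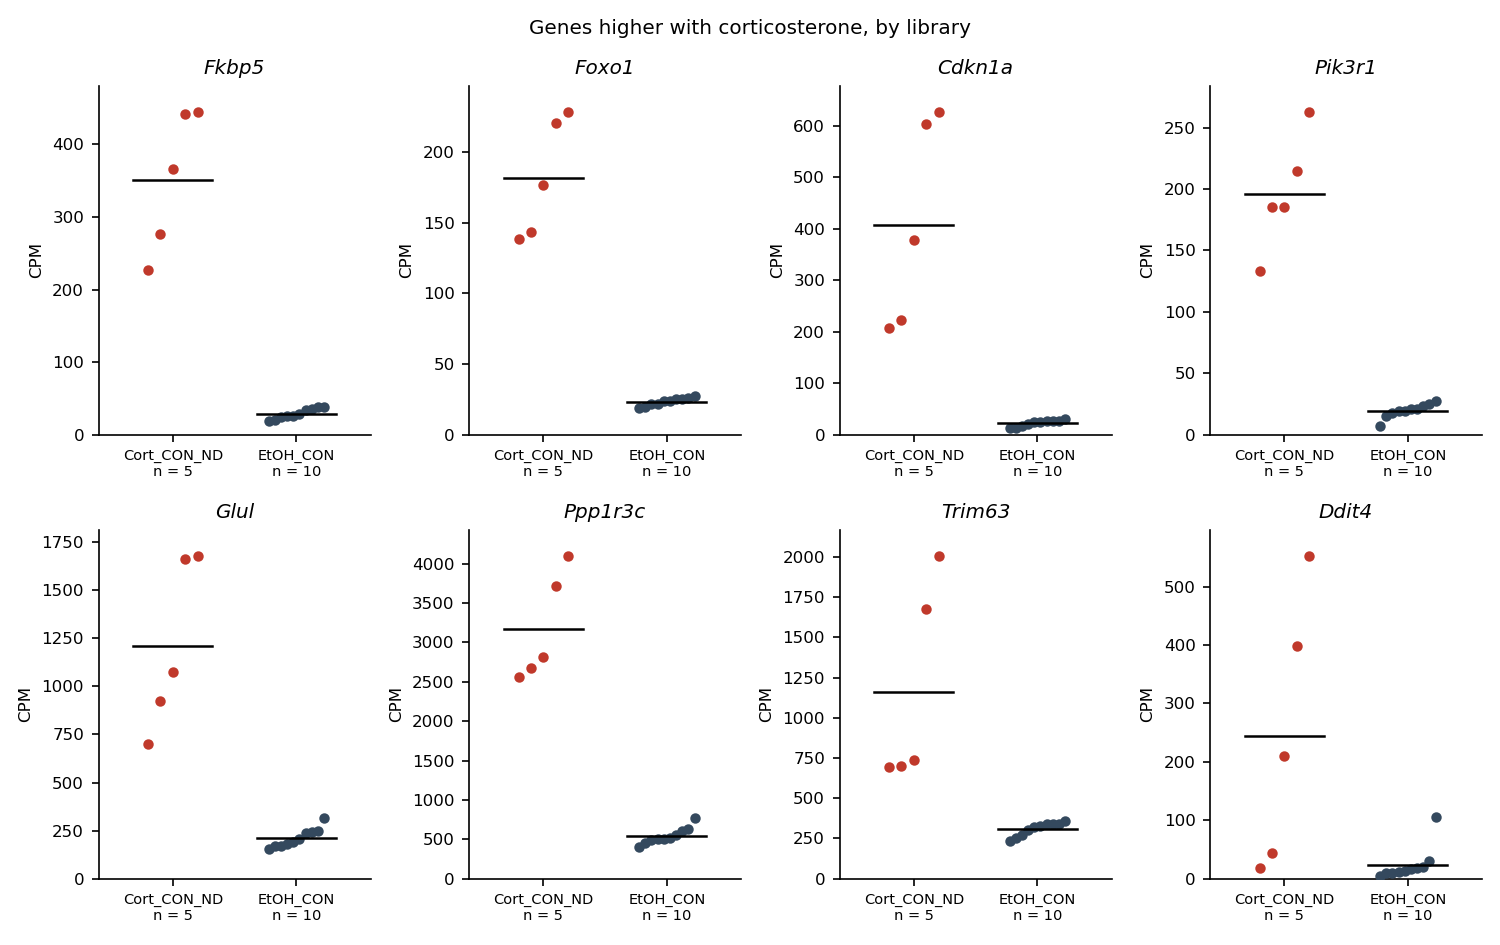
Levels in CPM (vertical axes, each from 0) of genes that rose in Cort_CON_ND, 1 point per library in rising order, with a line at the group mean, for 5 Cort_CON_ND and 10 EtOH_CON libraries. Fkbp5 runs from 227 to 445 CPM in Cort_CON_ND and from 18.8 to 37.9 CPM in EtOH_CON. The corticosterone points spread more widely in CPM than the vehicle points, around a higher mean, and relative spread was not compared.

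Promoters of the risen receptor targets were read from RefSeq (GRCm38.p6) for glucocorticoid response elements, searched as GNACANNNTGTNC on both strands in windows of 250 bases before to 50 after each start. Trim63, the atrophy ligase described next, joins Mt1 and Sgk1 here because each holds a match; they were chosen for display after their values were seen. Capitals mark the match, each sequence is 250 bases on the forward strand ending just before the RefSeq start site, and the windows lie at chr4:134314870-134315119, chr8:94178839-94179088 and chr10:21993640-21993889. The Mt1 window ends a few bases inside the gene as GENCODE places it.
Trim63: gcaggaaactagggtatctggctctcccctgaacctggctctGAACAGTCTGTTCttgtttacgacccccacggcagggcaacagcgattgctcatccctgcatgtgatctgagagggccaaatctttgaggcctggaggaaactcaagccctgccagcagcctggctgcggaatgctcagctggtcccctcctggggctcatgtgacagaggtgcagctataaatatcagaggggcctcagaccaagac
Mt1: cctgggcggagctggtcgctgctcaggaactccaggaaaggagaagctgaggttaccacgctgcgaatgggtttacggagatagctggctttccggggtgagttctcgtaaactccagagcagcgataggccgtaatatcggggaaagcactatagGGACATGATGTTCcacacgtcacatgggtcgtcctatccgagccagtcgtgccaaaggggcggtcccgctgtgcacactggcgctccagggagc
Sgk1: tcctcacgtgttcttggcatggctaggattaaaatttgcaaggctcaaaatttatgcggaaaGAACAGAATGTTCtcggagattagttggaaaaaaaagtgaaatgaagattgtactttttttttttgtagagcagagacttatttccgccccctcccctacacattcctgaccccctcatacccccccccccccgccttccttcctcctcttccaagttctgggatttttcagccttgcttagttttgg
Counted from the RefSeq start, the first base of the match lies at -208 in Trim63, -94 in Mt1 and -188 in Sgk1. A match was found in 4 of 35 windows (11.4%) of 21 risen targets, against 156 of 32851 windows of all genes (0.475%) and 42 of 12227 windows of tested genes (0.344%). For comparison, the cAMP response element TGACGTCA was found in 1 of the 35 windows (2.86%), against 1.79% of all windows and 2.95% of those of tested genes, and the E-box CACGTG in 4 (11.4%), against 7.15% and 9.91%. Of the 4 windows, 2 belong to Fam107a, start 2 bases apart and hold the same match, so that by gene the element was found in 14.3% of the 21 risen targets, against 0.42% of the tested genes, and the E-box in 19.0%, against 11.9%. A match is a description of letters in a short window, and receptor elements that lie farther away were not searched. Windows were at hand for 21 of the 24 risen targets, and listed targets that did not rise were not read apart. The list was compiled as direct targets of the receptor, so a higher share than over all genes is no result about these data.

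Of 26 ubiquitin ligase and FoxO-linked genes of muscle protein breakdown, 11 rose, 1 fell and the others were not called (median log2 fold change 0.189), with 8 risen without p32 and p33. Trim63, or MuRF1, the ligase that tags myosin and other thick filament proteins (chromosome 4, 134315120 to 134329629, forward strand), measured 693, 1679, 2007, 701 and 735 CPM in the Cort_CON_ND libraries, against 233 to 356 CPM with a median of 326 in EtOH_CON (log2 fold change 1.92, SE 0.29, adjusted p = 2.03e-06). All 5 lay above vehicle, and p32 and p33 were more than 2 times the other 3. Fbxo32, or atrogin-1, the other muscle atrophy ligase, measured 534, 516, 762, 473 and 505 CPM in the Cort_CON_ND libraries, against 209.6 to 383 CPM with a median of 332 in EtOH_CON (log2 fold change 0.80, SE 0.21, adjusted p = 0.00458). The groups did not overlap, although without p32 and p33 the log2 fold change was 0.65 (adjusted p = 0.0824). Foxo3, which drives both ligases, rose by 1.35 on the log2 scale, the insulin receptor substrate ligase Cblb by 1.04, the Trim63 relative Trim54 by 0.74, and the polyubiquitin gene Ubb by 0.41. Foxo6 was the member that fell, at 1.94 ± 0.795 CPM in Cort_CON_ND and 8.96 ± 1.84 CPM in EtOH_CON (log2 fold change -2.2, SE 0.30, adjusted p = 5.84e-08).

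Of the proteolytic machinery downstream, the proteasome moved little. Of 34 proteasome genes, 3 rose (Psmc5, Psmc2 and Psmb3, by 0.34, 0.29 and 0.26), none fell, and the share is below that of all genes tested; without p29 only 1 was called. Of 27 autophagy and lysosome genes, 6 rose and 1 fell. Map1lc3a, which coats autophagosomes, averaged 335 ± 73.9 CPM in Cort_CON_ND and 174 ± 29.1 CPM in EtOH_CON (log2 fold change 0.94, SE 0.14, adjusted p = 6.64e-07), and Bnip3, a mitophagy receptor, rose by 0.55. In the myostatin and activin list, 4 of 19 rose and 3 fell, where 11% of all genes tested rose and 11.7% fell. Without p01, 5 of the list fell. Mstn, the muscle growth inhibitor myostatin, measured 33.9, 51.3, 56.5, 53.4 and 46.6 CPM in the Cort_CON_ND libraries, against 24.3 to 42.6 CPM with a median of 36.8 in EtOH_CON and was not called (log2 fold change 0.45, adjusted p = 0.0556); it was called at adjusted p = 0.0217 when only the libraries of the 2 groups were fitted. The follistatin-related gene Fstl1 and the signal transducer Smad3 fell by 1.79 and 1.05 on the log2 scale, and the receptors Acvr1b and Tgfbr1 rose by 0.80 and 0.63.

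Among 38 genes of insulin, IGF and mTOR signalling, 10 rose and 6 fell, and 6 rose and 4 fell without p32 and p33. The members that moved stand on both sides of the pathway. Irs1, the docking protein that couples the insulin receptor to PI3-kinase, measured 21.6, 40.1, 35.9, 25.7 and 24 CPM in the Cort_CON_ND libraries, against 62.7 to 104 CPM with a median of 79.7 in EtOH_CON (log2 fold change -1.45, SE 0.19, adjusted p = 7.48e-08). All 5 were below all 10 vehicle libraries, and p32 and p33, the highest for many risen genes, were also the highest of the 5 here. Ddit4l, a relative of Ddit4, averaged 207 ± 31.2 CPM in Cort_CON_ND and 454 ± 75.2 CPM in EtOH_CON (log2 fold change -1.13, SE 0.16, adjusted p = 2.16e-07), and Igfbp5, an IGF-binding protein, averaged 117 ± 48.2 CPM in Cort_CON_ND and 321 ± 43.2 CPM in EtOH_CON (log2 fold change -1.45, SE 0.36, adjusted p = 0.00225). Slc2a4, the insulin-responsive glucose transporter GLUT4, and Tbc1d4, which gates its movement to the membrane, rose by 0.32 and 0.51. The insulin receptor gene Insr had a log2 fold change of 0.25 (adjusted p = 0.185) and was not called.

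Carbohydrate genes changed at a few points. Ppp1r3c, a scaffold that brings protein phosphatase 1 to glycogen and favours its synthesis, measured 2670, 4100, 3722, 2821 and 2562 CPM in the Cort_CON_ND libraries, against 406 to 771 CPM with a median of 511 in EtOH_CON (log2 fold change 2.55, SE 0.15, adjusted p = 2.07e-19), with all 5 libraries more than 3 times the highest vehicle library. In all, 3 of 20 glycogen genes rose and none fell, with the branching enzyme Gbe1 up by 0.59, while the phosphorylase Pygm and the synthase Gys1 had log2 fold changes of -0.12 (adjusted p = 0.445) and 0.05 (adjusted p = 0.741). Of 20 glycolysis genes, 4 rose and 1 fell, and 2 rose without p32 and p33. For both lists, the shares over all genes tested were 11% risen and 11.7% fallen. Pfkfb3, which makes the activator of phosphofructokinase, measured 47.4, 45.6, 55.6, 46.1 and 128 CPM in the Cort_CON_ND libraries, against 153 to 284 CPM with a median of 213 in EtOH_CON (log2 fold change -1.72, SE 0.32, adjusted p = 5.63e-05); p49 stood above the other 4 but below vehicle. The related Pfkfb1 and the lactate exporter Slc16a3 rose by 0.76 and 0.91.

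Genes of lipid droplets and of fatty acid use rose in number: 11 of 22 lipid droplet genes rose and 2 fell, and 16 of 35 fuel switch and fatty acid oxidation genes rose and 1 fell. With p32 and p33 both left out, 7 fuel switch and oxidation genes and 8 droplet genes rose, and no droplet gene fell. With 1 library left out, the risen fuel switch and oxidation genes numbered 11 to 20. Plin4, a droplet coat protein, measured 393, 496, 487, 454 and 324 CPM in the Cort_CON_ND libraries, against 75.5 to 124 CPM with a median of 89.2 in EtOH_CON (log2 fold change 2.21, SE 0.13, adjusted p = 2.07e-19), with a wide gap between the groups. Pnpla2, the triglyceride lipase ATGL, measured 259.5, 418, 391, 236 and 215 CPM in the Cort_CON_ND libraries, against 124 to 185 CPM with a median of 149.9 in EtOH_CON (log2 fold change 0.98, SE 0.20, adjusted p = 0.000156). All 5 exceeded vehicle, with p32 and p33 highest; without them the log2 fold change was 0.61 (adjusted p = 0.0556). G0s2, the ATGL inhibitor, averaged 93.2 ± 19.7 CPM in Cort_CON_ND and 15.7 ± 6.82 CPM in EtOH_CON (log2 fold change 2.57, SE 0.28, adjusted p = 9.67e-10), so that both the lipase and its inhibitor rose. Plin5, which tethers droplets to mitochondria, averaged 93.8 ± 58.7 CPM in Cort_CON_ND and 15 ± 3.56 CPM in EtOH_CON (log2 fold change 2.65, SE 0.29, adjusted p = 9.07e-10). Pnpla3, Plin3 and Dgat2 rose by 2.99, 1.004 and 1.02. Plin2, the general droplet coat, went the other way, at 10.6, 10.9, 9.86, 10.9 and 10.1 CPM in the Cort_CON_ND libraries, against 11.8 to 20.4 CPM with a median of 15.4 in EtOH_CON (log2 fold change -0.60, SE 0.19, adjusted p = 0.0197); without p32 and p33 the value was -0.60 (adjusted p = 0.0867).

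Pdk4, the kinase that shuts pyruvate out of the mitochondrial oxidation of glucose, measured 58.1, 178, 240.3, 134 and 119.9 CPM in the Cort_CON_ND libraries, against 7.33 to 67.5 CPM with a median of 23.3 in EtOH_CON (log2 fold change 2.35, SE 0.48, adjusted p = 0.00021). Library p29 lay inside the vehicle range and the other 4 above it. Acot1, a thioesterase that frees fatty acids from coenzyme A, and the fatty acid transporter Cd36 rose by 2.73 and 0.85, and Angptl4, an inhibitor of lipoprotein lipase, by 1.98. Of 20 genes of fatty acid and cholesterol synthesis, 3 rose and 6 fell, and these counts were not steady: none rose without p29, 2 fell without p33, and without both p32 and p33 5 rose and 2 fell. Scd1, a fatty acid desaturase, averaged 172 ± 91.8 CPM in Cort_CON_ND and 63.4 ± 46 CPM in EtOH_CON (log2 fold change 1.44, SE 0.48, adjusted p = 0.0251), and Sqle and Hmgcs1 of the sterol pathway fell by 2.06 and 0.29. Without p32 and p33 Sqle had a log2 fold change of -1.44 (adjusted p = 0.16) and was not called.

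Among amino acid and nitrogen genes, 10 of 27 rose and 2 fell, though 6 rose without p32 and 5 without both p32 and p33. Glul, glutamine synthetase, measured 926, 1679, 1661, 1075 and 702 CPM in the Cort_CON_ND libraries, against 154 to 316 CPM with a median of 198 in EtOH_CON (log2 fold change 2.52, SE 0.20, adjusted p = 3.09e-14). All 5 exceeded vehicle by at least 2 times its highest library. Gnmt, glycine N-methyltransferase, which consumes S-adenosylmethionine, measured 23.9, 33.6, 19.3, 14.2 and 11.5 CPM in the Cort_CON_ND libraries, against 0.316 to 1.94 CPM with a median of 1.09 in EtOH_CON (log2 fold change 4.18, SE 0.33, adjusted p = 7.38e-14). The groups did not overlap. The alanine aminotransferases Gpt and Gpt2 rose by 0.64 and 0.57, and the glutamine transporter Slc38a3 by 0.85. Amd1 and Azin1, of polyamine synthesis and its control, fell by 1.22 and 0.57. Pnmt, which methylates noradrenaline to adrenaline, measured 22.6, 28.2, 25.4, 29.9 and 11.5 CPM in the Cort_CON_ND libraries, against 0.401 to 1.49 CPM with a median of 0.734 in EtOH_CON (log2 fold change 4.82, SE 0.40, adjusted p = 9.71e-13). Nmrk2, a muscle kinase of nicotinamide riboside, measured 17.5, 12.4, 10.3, 16.5 and 13.7 CPM in the Cort_CON_ND libraries, against 69.7 to 167 CPM with a median of 121 in EtOH_CON (log2 fold change -3.12, SE 0.41, adjusted p = 1.31e-07). Both differed without overlap, in opposite directions. Of the remaining large rises, Fibin averaged 70.5 ± 21.2 CPM in Cort_CON_ND and 6.76 ± 1.73 CPM in EtOH_CON, Kcnf1, a silent potassium channel subunit, averaged 37.3 ± 9.49 CPM in Cort_CON_ND and 4.2 ± 1.15 CPM in EtOH_CON, and Odf3l2 averaged 326 ± 104 CPM in Cort_CON_ND and 36.7 ± 9.01 CPM in EtOH_CON, with log2 fold changes of 3.38, 3.15 and 3.15.

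Of 16 acute phase, metallothionein and cytokine receptor genes, 8 rose and 1 fell. Lcn2, lipocalin-2, a secreted siderophore binder of the acute phase, measured 50.05, 116, 127, 54 and 59.8 CPM in the Cort_CON_ND libraries, against 0.575 to 1.47 CPM with a median of 0.907 in EtOH_CON (log2 fold change 6.43, SE 0.44, adjusted p = 1.38e-15). It had the largest log2 fold change of the named genes, over vehicle levels near 1 CPM. Mt1, a metal-binding metallothionein (chromosome 8, 94179082 to 94180327, forward strand), measured 396, 1164, 1002, 611 and 303 CPM in the Cort_CON_ND libraries, against 26.8 to 83.6 CPM with a median of 36.4 in EtOH_CON (log2 fold change 4.05, SE 0.47, adjusted p = 4.46e-09), and its neighbour Mt2 measured 418, 1178, 1157, 678 and 316 CPM in the Cort_CON_ND libraries, against 17.1 to 100.2 CPM with a median of 30.3 in EtOH_CON (log2 fold change 4.46, SE 0.55, adjusted p = 2.87e-08). In both genes p32 and p33 were the highest of the 5 and vehicle library p10 the highest of the 10. Mt1 and Mt2 are close copies, and how the counting treated reads shared by copies is not given. The interleukin-6 receptor gene Il6ra averaged 39.1 ± 11.8 CPM in Cort_CON_ND and 6.4 ± 2.11 CPM in EtOH_CON (log2 fold change 2.61, SE 0.24, adjusted p = 9.13e-12), Serpina3n and Orm1 rose by 1.92 and 1.97, and the NF-kappaB subunit gene Relb fell by 1.12.

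Clock genes split, with 6 of 20 risen and 6 fallen. Dbp, a transcription factor driven by the clock, measured 5.22, 3.75, 5.15, 3.89 and 3.38 CPM in the Cort_CON_ND libraries, against 27 to 71.5 CPM with a median of 40.1 in EtOH_CON (log2 fold change -3.3, SE 0.28, adjusted p = 4.46e-13). Nfil3, which competes with it for the same DNA sites, measured 53.2, 111, 88.3, 77.2 and 42.6 CPM in the Cort_CON_ND libraries, against 8.64 to 16.8 CPM with a median of 13.2 in EtOH_CON (log2 fold change 2.53, SE 0.18, adjusted p = 8.27e-16). The pair moved oppositely and neither overlapped. Nr1d1, Nr1d2, Per3, Bhlhe41 and Hlf fell by 1.17, 0.71, 1.31, 1.12 and 0.84. The risen count was 3 without p33. The hour of tissue collection is not given for any library, so its part was not tested.

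Fibre genes moved in both directions. Of 15 fast fibre genes, 6 rose and 3 fell, of 15 slow fibre genes 5 rose and none fell, and of 20 calcium handling genes 8 rose and 2 fell. Actn3, the fast fibre Z-line actinin, measured 5962, 4133, 4507, 5480 and 5230 CPM in the Cort_CON_ND libraries, against 2014 to 3123 CPM with a median of 2764 in EtOH_CON (log2 fold change 0.91, SE 0.10, adjusted p = 2.43e-10). Myl1, a fast alkali light chain, measured 6121, 8410, 9821, 7399 and 7945 CPM in the Cort_CON_ND libraries, against 12710 to 17470 CPM with a median of 15880 in EtOH_CON (log2 fold change -0.99, SE 0.19, adjusted p = 0.000108). Both were without overlap, Actn3 above and Myl1 below vehicle. The myosin heavy chains Myh1 and Myh2 rose by 0.85 and 0.51, and Myh4 and the slow Myh7 had log2 fold changes of 0.18 (adjusted p = 0.304) and 0.23 (adjusted p = 0.703). Ankrd2 and Myoz2, Z-line genes of slow fibres, rose by 1.78 and 1.34, and the calcium buffers Casq1 and Pvalb fell by 0.40 and 0.48. Without p29, 3 slow genes rose, 4 fast genes rose and 1 fast gene fell, and without p09 5 calcium genes rose. Of 79 cytosolic ribosomal protein genes, 22 rose and none fell, with Rps28, Rps27 and Rps2 up by 0.44, 0.52 and 0.39. The count of rises was 8 without p29. Called or not, 78 of the 79 had a positive log2 fold change in the main fit, with a median of 0.234. Of 73 nuclear-encoded respiratory chain genes, 3 rose, a share below that of all genes tested, and none was called without p29.

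Collagen and connective tissue genes fell. Of 21 collagen genes, 17 fell and none rose (median log2 fold change -1.38), and 16 fell without p32 and p33. Their summed level was 161 to 269 CPM in Cort_CON_ND and 701 to 1143 CPM in EtOH_CON. Col1a1, which with Col1a2 makes the fibrillar collagen of tendon and the muscle's outer sheaths (chromosome 11, 94936224 to 94953042, forward strand), measured 14.5, 22.6, 31.3, 19.1 and 32.1 CPM in the Cort_CON_ND libraries, against 148 to 403 CPM with a median of 232 in EtOH_CON (log2 fold change -3.31, SE 0.35, adjusted p = 4.87e-10). Col3a1, the fibrillar collagen of soft connective tissue, measured 11.8, 17.6, 33.5, 13.8 and 19.1 CPM in the Cort_CON_ND libraries, against 79.1 to 150.5 CPM with a median of 121 in EtOH_CON (log2 fold change -2.65, SE 0.30, adjusted p = 3.68e-09). Every corticosterone library was below every vehicle library in both, by a factor of more than 2 at the nearest pair. Col1a2 and Col15a1, a basement membrane-zone collagen, fell by 2.75 and 2.97 on the log2 scale, Col6a1, Col6a2 and Col6a3, the chains of the microfibrillar collagen around fibres, by 2.10, 2.07 and 2.40, and the basement membrane chain Col4a2 by 0.58. Of 35 matrix glycoproteins and matrix-modifying enzymes, 25 fell and 1 rose, with 19 fallen without p32 and p33. Fbn1, fibrillin-1, fell by 1.70, the procollagen protease enhancer Pcolce by 1.40, the collagen chaperone Serpinh1 by 1.32, the gelatinase Mmp2 by 1.85, fibronectin Fn1 by 1.43 and tenascin-C, Tnc, by 2.55. The member that rose was Lox, a collagen cross-linking enzyme, at 17.1 ± 3.75 CPM in Cort_CON_ND and 8.94 ± 1.59 CPM in EtOH_CON (log2 fold change 0.94, SE 0.28, adjusted p = 0.0109), whereas its relatives Loxl1 and Loxl2 both fell by 1.87.

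Markers of the cells that make this matrix fell too, and in bulk muscle fewer cells of a type and less RNA per cell cannot be told apart. Of 12 markers of fibro-adipogenic progenitors, the resident fibroblast-like cells of muscle, 11 fell (median log2 fold change -0.897). Smoc2 averaged 40.8 ± 8.77 CPM in Cort_CON_ND and 89.2 ± 8.27 CPM in EtOH_CON (log2 fold change -1.13, SE 0.11, adjusted p = 9.86e-12), and Cd34 and Pi16 fell by 0.89 and 1.55. The defining marker Pdgfra was the one not called, at 8.72 ± 1.51 CPM in Cort_CON_ND and 9.69 ± 2.09 CPM in EtOH_CON (log2 fold change -0.15, adjusted p = 0.654). The summed marker level was 599 to 947 CPM in Cort_CON_ND and 869.8 to 1410 CPM in EtOH_CON, which overlap. Of 9 tendon markers, 7 fell (median -1.93), and their sum was 116 to 248 CPM in Cort_CON_ND and 282 to 566 CPM in EtOH_CON, without overlap. Cilp2, a cartilage and tendon matrix protein, measured 1.52, 1.63, 2.43, 2.09 and 5.07 CPM in the Cort_CON_ND libraries, against 22.6 to 50.8 CPM with a median of 33 in EtOH_CON (log2 fold change -3.77, SE 0.39, adjusted p = 2.84e-10), the largest fall of the named genes. Tnmd, tenomodulin, the marker of mature tendon cells, averaged 1.82 ± 0.726 CPM in Cort_CON_ND and 12.8 ± 3.6 CPM in EtOH_CON (log2 fold change -2.82, SE 0.38, adjusted p = 1.27e-07), and Kera, a tendon keratan sulphate core protein, was at 0 CPM in Cort_CON_ND library p29. How much tendon each piece of muscle held was not measured, and its part in the collagen falls was not tested.

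**Figure D3:**
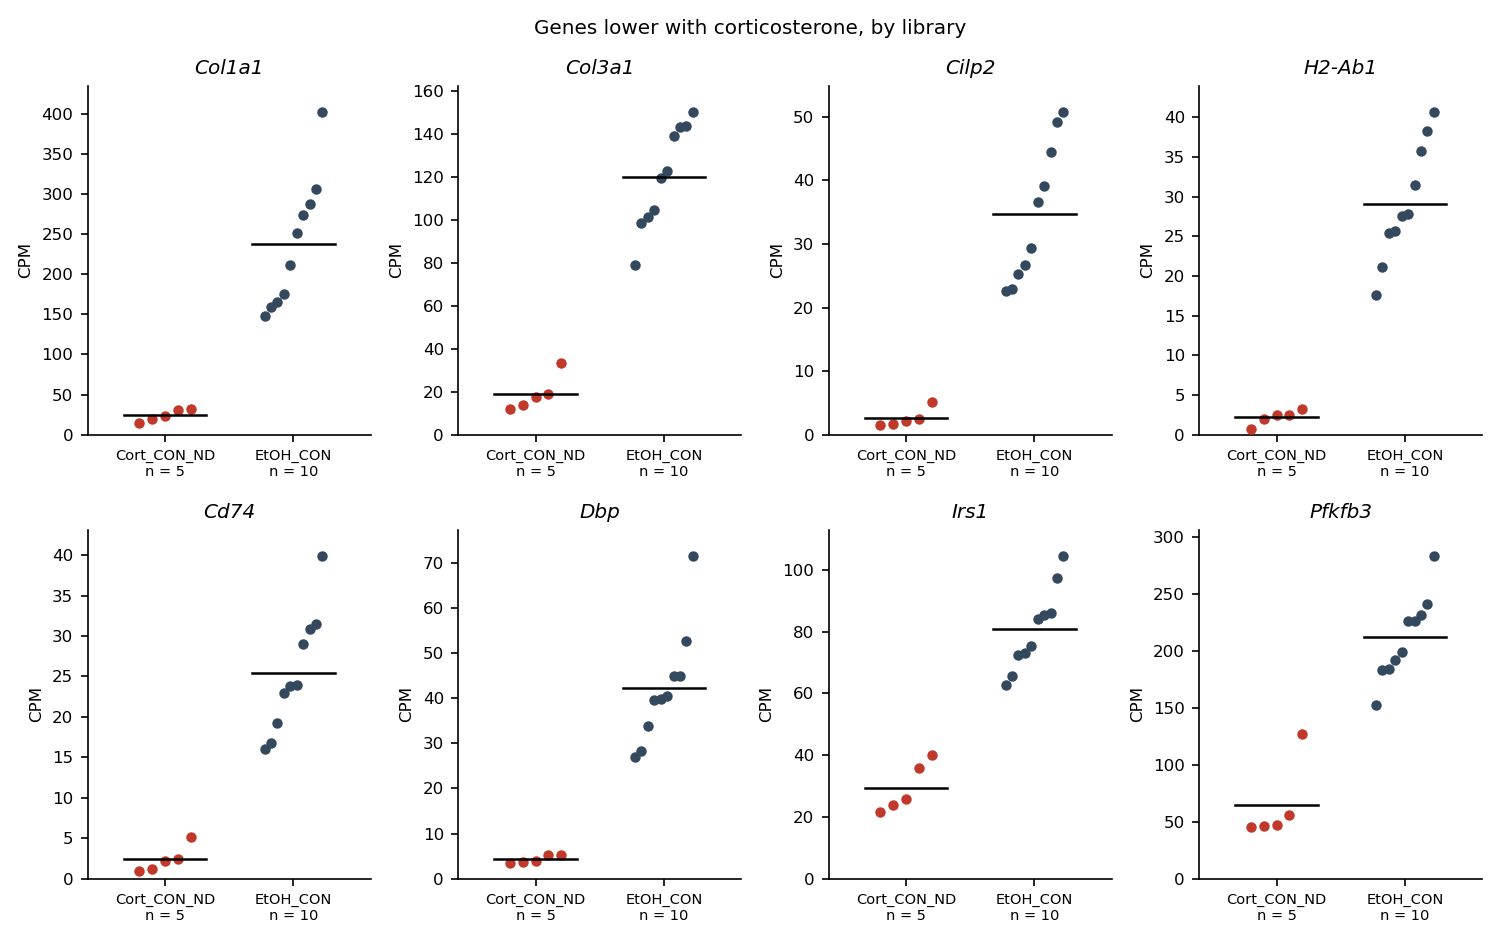
Levels in CPM (vertical axes, each from 0) of genes that fell in Cort_CON_ND, 1 point per library in rising order with a line at the group mean, for 5 Cort_CON_ND and 10 EtOH_CON libraries. In all 8 genes the 5 corticosterone points lie below the 10 vehicle points, as in Col1a1 at 14.5 to 32.1 CPM in Cort_CON_ND and 148 to 403 CPM in EtOH_CON.

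Antigen presentation genes fell as well. Of 9 MHC class II and antigen processing genes, 7 fell and none rose (median log2 fold change -2.63), with 7 fallen without p32 and p33 as well, and the summed level was 22.4 to 44.8 CPM in Cort_CON_ND and 115 to 215 CPM in EtOH_CON. H2-Ab1, the class II beta chain (chromosome 17, 34257689 to 34269419, forward strand), measured 2.53, 1.96, 3.29, 0.748 and 2.53 CPM in the Cort_CON_ND libraries, against 17.6 to 40.7 CPM with a median of 27.7 in EtOH_CON (log2 fold change -3.71, SE 0.35, adjusted p = 2.36e-11). Cd74, the invariant chain that escorts class II molecules, measured 1.18, 2.44, 5.15, 0.898 and 2.2 CPM in the Cort_CON_ND libraries, against 16.1 to 39.9 CPM with a median of 23.9 in EtOH_CON (log2 fold change -3.4, SE 0.42, adjusted p = 1.84e-08). No library of one group reached the other in either gene. H2-Aa and H2-Eb1 fell by 3.66 and 3.65, and the peptide-loading subunit H2-DMa by 1.82; class II genes are paralogs, and how shared reads were counted is not given. Of 24 MHC class I and interferon genes, 9 fell and 1 rose, with B2m, the class I light chain, at 137 ± 14.6 CPM in Cort_CON_ND and 206 ± 28.9 CPM in EtOH_CON (log2 fold change -0.59, SE 0.12, adjusted p = 0.000172) and the immunoproteasome gene Psmb8 down by 1.32. The one that rose was Irf8, by 0.56. Without p32 and p33, 6 of the 24 fell and none rose.

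Markers of whole leukocyte classes were also read. Of 12 macrophage and pan-leukocyte markers, 3 fell and 1 rose; Ptprc, the pan-leukocyte CD45, Mrc1 and Csf1r fell by 1.39, 0.63 and 0.47, the scavenger receptor Cd163 rose by 0.70, a call lost without p49 (adjusted p = 0.0719) and without p32 and p33 (adjusted p = 0.0593), and the summed level was 97.7 to 147 CPM in Cort_CON_ND and 108 to 196 CPM in EtOH_CON. The count of falls was 1 without p29 and 1 without p32 and p33. Whether the class II falls went with fewer antigen-presenting cells was not tested. Of 11 lymphocyte markers, 2 had enough counts to test and both fell: Ighm, the IgM heavy chain, measured 3.03, 43, 40.03, 12 and 9.46 CPM in the Cort_CON_ND libraries, against 24.2 to 117 CPM with a median of 45.6 in EtOH_CON (log2 fold change -1.41, SE 0.53, adjusted p = 0.0482), and Igkc averaged 0.296 ± 0.400 CPM in Cort_CON_ND and 3.52 ± 5.1 CPM in EtOH_CON (log2 fold change -3.48, SE 1.07, adjusted p = 0.0142). The Igkc call was lost under limma voom (adjusted p = 0.0663), and its log2 fold change ran from -4.78 without p33 to -2.69 without p10. The Ighm values overlap, with p32 and p33 high and p29 near 3 CPM, and the call was lost on leaving out any of 8 libraries. Of the 3 neutrophil markers tested, Mmp9 fell, by 2.22. Endothelial markers fell in 4 of 11 cases and rose in 1, with Pecam1 at 37.2 ± 11.2 CPM in Cort_CON_ND and 36.8 ± 4.38 CPM in EtOH_CON (log2 fold change 0.02, adjusted p = 0.961) and a summed level of 194 to 278 CPM in Cort_CON_ND and 209 to 271 CPM in EtOH_CON; 1 fell without p32 and p33. Smooth muscle and pericyte markers fell in 5 of 9, 3 without p33 and 1 without both p32 and p33. Adipocyte markers did not move together: 1 of 9 rose and 2 fell, where 11% of all genes tested rose and 11.7% fell. Without p32, 1 adipocyte marker fell. Lep, leptin, measured 14.3, 6.52, 16, 12 and 9.63 CPM in the Cort_CON_ND libraries, against 1.31 to 8.37 CPM with a median of 3.05 in EtOH_CON (log2 fold change 1.91, SE 0.36, adjusted p = 7.43e-05), Cfd, adipsin, measured 44.1, 26.1, 39, 44.3 and 32.8 CPM in the Cort_CON_ND libraries, against 48 to 348 CPM with a median of 103 in EtOH_CON (log2 fold change -2.04, SE 0.50, adjusted p = 0.00196), and Adipoq, adiponectin, averaged 25 ± 7.85 CPM in Cort_CON_ND and 22.9 ± 12.7 CPM in EtOH_CON and was not called.

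**Figure D4:**
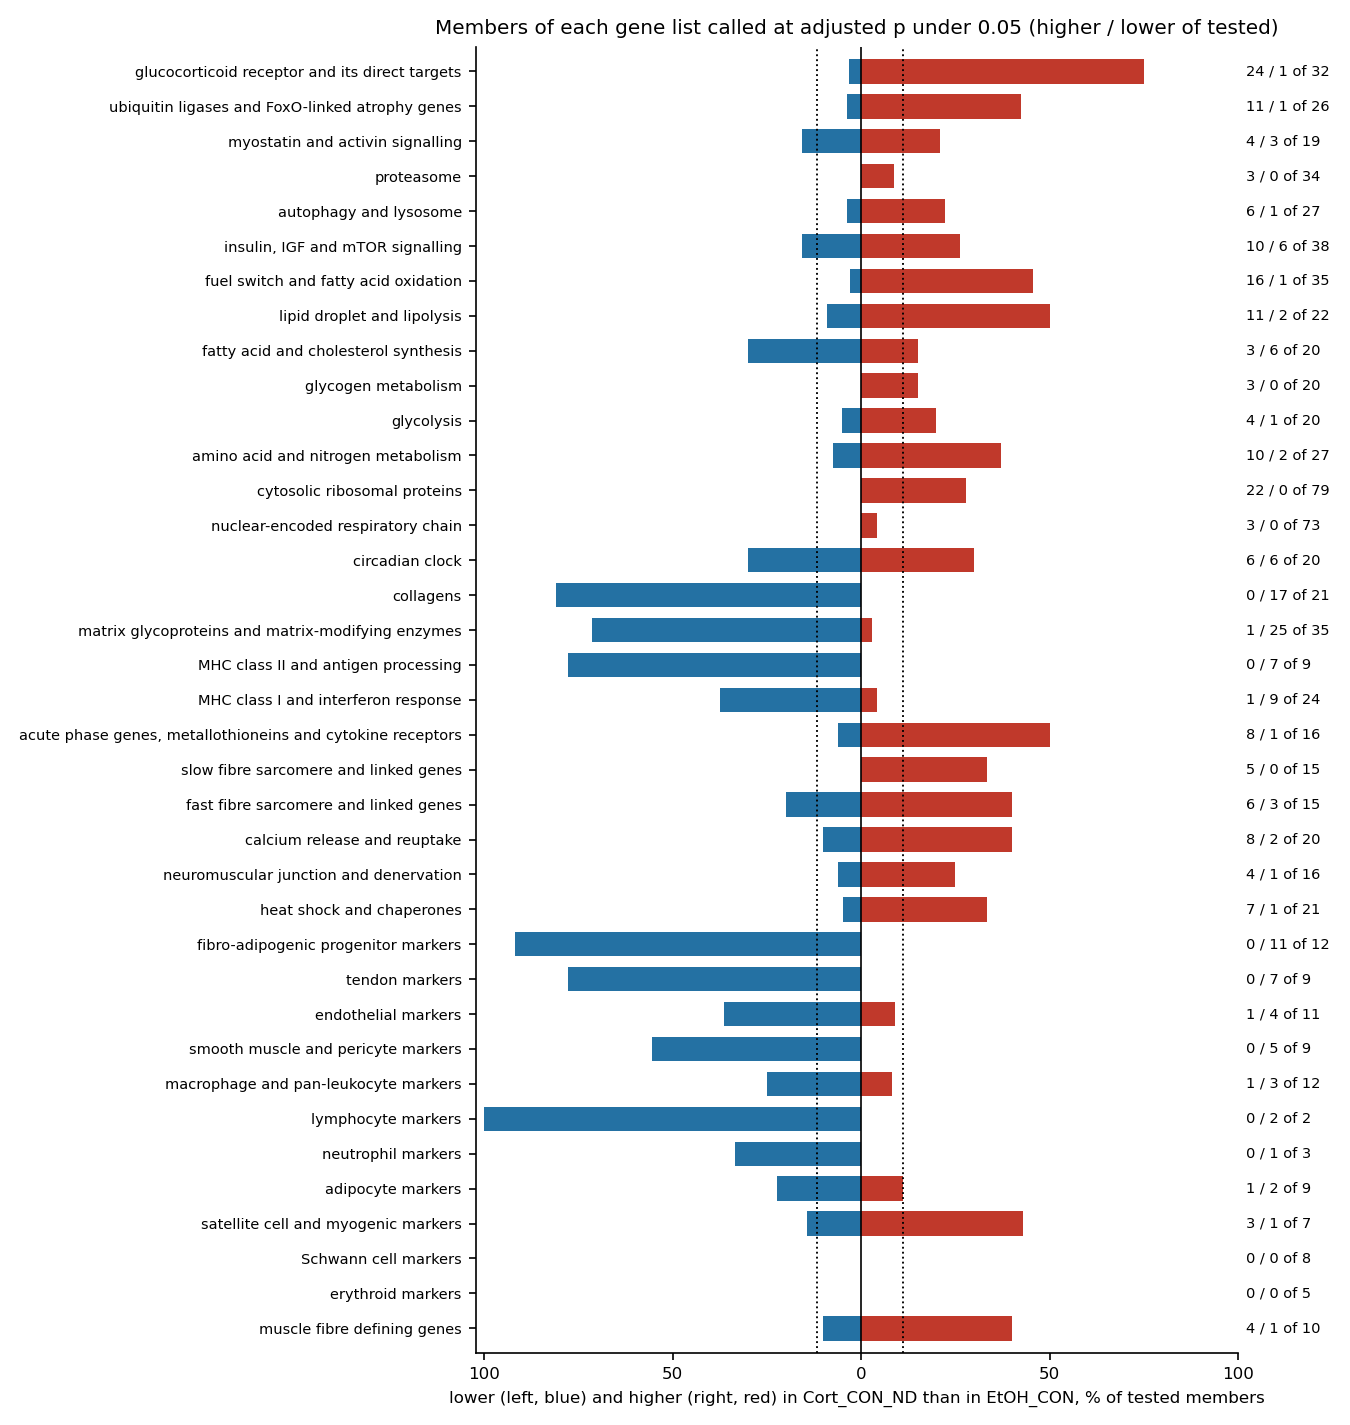
Share of the tested members of each gene list, in percent, that rose (right, red) or fell (left, blue) in Cort_CON_ND relative to EtOH_CON at an adjusted p under 0.05 (edgeR), with the counts at the right edge and dotted lines at the shares of all genes tested, 11.7% lower and 11% higher. Collagens, matrix genes, MHC class II and fibro-adipogenic progenitor markers lie on the lower side, with 17 of 21 collagens fallen, and receptor targets on the higher side, with 24 of 32 risen.

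Set against the 9 corticosterone, control-diet mice marked diabetic, Cort_CON_ND showed no gene past the threshold: 0 of 12592 higher (0.00%) and 0 lower (0.00%) by edgeR, with a smallest adjusted p of 0.506 and 625 genes at an unadjusted p under 0.05. DESeq2 and limma voom also called 0, with 731 and 600 genes at that unadjusted level. The miss does not show that the groups were alike. Over the 1380 genes that rose against vehicle, the median difference from Cort_CON_Db was -0.0119 on the log2 scale with a median half-width of the 95% interval of 0.269, and over the 1476 that fell it was -0.036 with 0.395. An unadjusted p under 0.05 (edgeR) was met by 113 of the 1380 and 94 of the 1476. Some lists leaned to 1 side and others were divided. All 79 ribosomal protein genes and 31 of 34 proteasome genes were lower in Cort_CON_ND. All 9 class II genes and all 12 macrophage and pan-leukocyte markers were higher. Fkbp5 averaged 351 ± 97.9 CPM in Cort_CON_ND and 322 ± 64.2 CPM in Cort_CON_Db, a log2 difference of 0.13 (95% interval -0.24 to 0.49). The differences were -0.09 (95% interval -0.70 to 0.51) for Trim63, -0.34 (95% interval -0.78 to 0.11) for Fbxo32, -0.58 (95% interval -1.57 to 0.42) for Pdk4 and 0.26 (95% interval -0.11 to 0.62) for Irs1, and each interval holds 0. The smallest unadjusted p among the receptor targets was that of Cited4, at 8.92 ± 0.965 CPM in Cort_CON_ND and 4.85 ± 1.45 CPM in Cort_CON_Db, a difference of 0.87 (95% interval 0.45 to 1.29) with an adjusted p of 0.506. Ighm differed by 1.11 (95% interval 0.10 to 2.12), with an adjusted p of 0.967.

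The last comparison asked whether the response to corticosterone differed between the diets: the control-diet response (Cort_CON_ND over EtOH_CON) minus the atglistatin response (Cort_ATGLi over EtOH_ATGLi), all 4 groups being marked nondiabetic. Cort_CON_ND held only the 5 of 14 corticosterone, control-diet libraries marked nondiabetic, while all 14 Cort_ATGLi libraries were used. A difference between the diets therefore cannot be told apart from this choice of mice. Of 12592 genes, 2 (0.0159%) had a higher and 3 (0.0238%) a lower log2 response on the control diet, and 722 had an unadjusted p under 0.05. Fkbp5 averaged 351 ± 97.9 CPM in Cort_CON_ND, 28.7 ± 6.97 in EtOH_CON, 273 ± 50.2 in Cort_ATGLi and 49.4 ± 15.5 in EtOH_ATGLi (± SD). Its corticosterone and vehicle libraries did not overlap on either diet, and the difference of the log2 responses was 1.15, SE 0.23, adjusted p = 0.0194. The corticosterone mean was lower and the vehicle mean higher on atglistatin than on the control diet. Pnkd averaged 32.6 ± 4.43 CPM in Cort_CON_ND, 16.1 ± 1.98 in EtOH_CON, 18.3 ± 2.72 in Cort_ATGLi and 16.5 ± 2.22 in EtOH_ATGLi (difference 0.87, SE 0.15, adjusted p = 0.00544). Its 5 Cort_CON_ND libraries lay above all libraries of the other 3 groups of this comparison, which does not include Cort_CON_Db. Sparc, a collagen-binding matrix protein, averaged 208 ± 44.9 CPM in Cort_CON_ND, 354 ± 63.7 in EtOH_CON, 237 ± 25.2 in Cort_ATGLi and 225 ± 35.7 in EtOH_ATGLi (-0.84, SE 0.15, adjusted p = 0.00544). The vehicle mice on the control diet had the highest mean and Cort_CON_ND the lowest of the 4 groups, and the same holds for Lonrf1 and for Itgb5, an integrin beta chain. Lonrf1 averaged 8.72 ± 1.18 CPM in Cort_CON_ND, 18.6 ± 1.83 in EtOH_CON, 13 ± 3.23 in Cort_ATGLi and 14.1 ± 2.03 in EtOH_ATGLi (-0.99, SE 0.20, adjusted p = 0.0194), and Itgb5 averaged 21.8 ± 2.48 CPM in Cort_CON_ND, 32.7 ± 3.54 in EtOH_CON, 31.9 ± 3.15 in Cort_ATGLi and 30.9 ± 2.81 in EtOH_ATGLi (-0.63, SE 0.12, adjusted p = 0.00544). Single libraries decide most of these calls: Fkbp5 was no longer called without p32, p33 or p36, Lonrf1 without p29, p32, p36 or p49, and Pnkd and Sparc without p32, whereas Itgb5 was called in each case. The log2 difference of Cort_CON_ND from Cort_CON_Db was also read, with 1 library left out at a time. It ran from 0.03 to 0.25 for Fkbp5 and from 0.33 to 0.50 for Pnkd. For Lonrf1 it ran from -0.30 to -0.06, for Itgb5 from -0.24 to -0.14 and for Sparc from -0.31 to -0.11. None of the 5 genes was called in those fits.

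**Figure D5:**
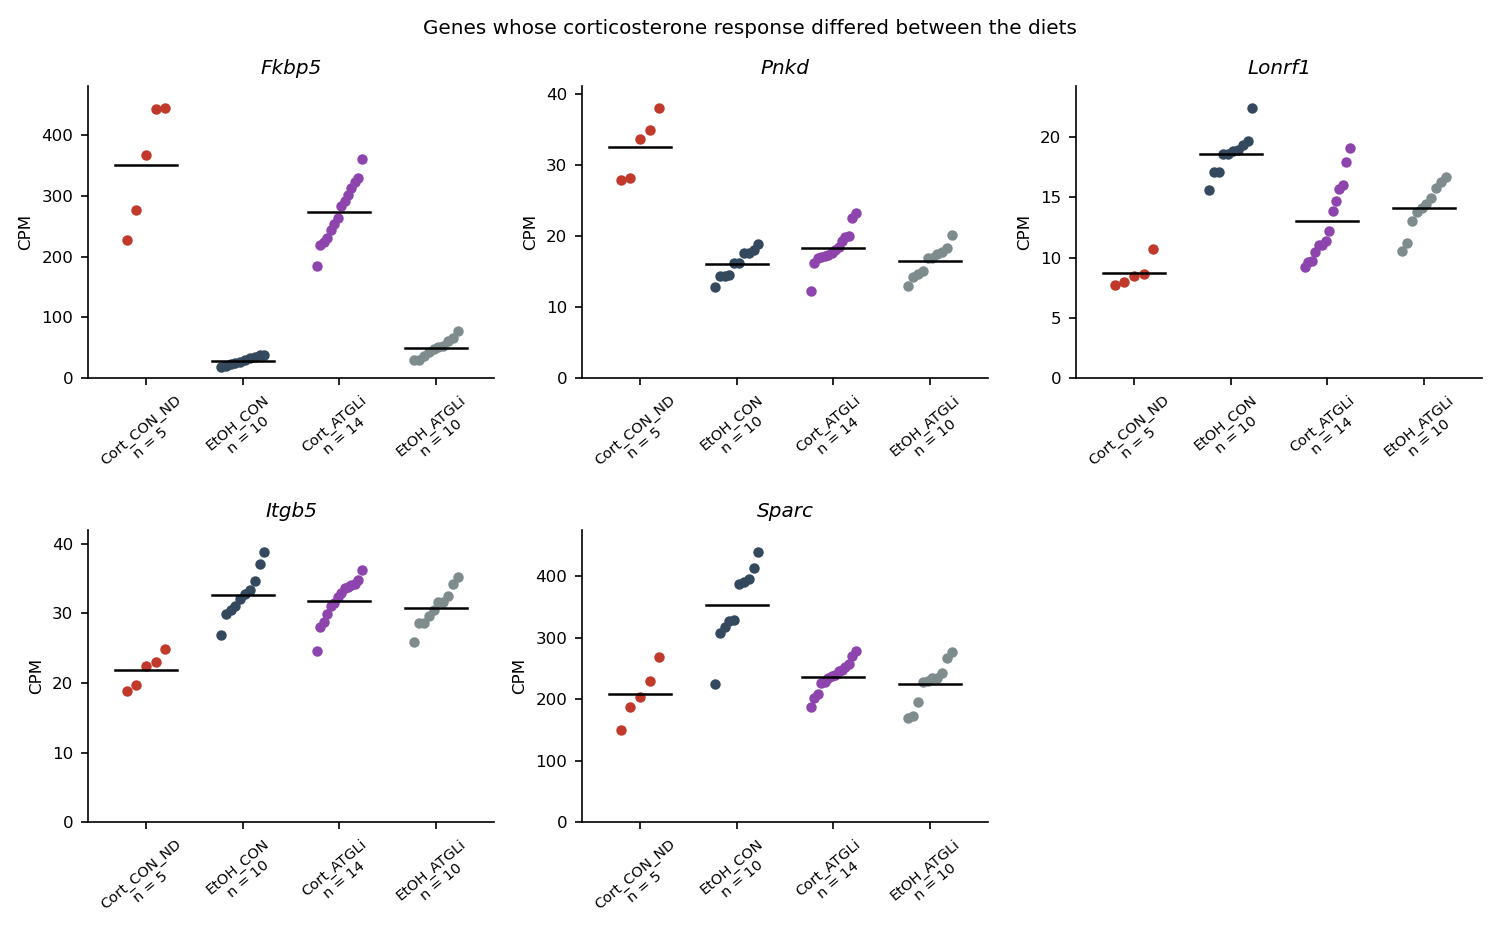
Levels in CPM (vertical axes, each from 0) of the 5 genes whose corticosterone response differed between the diets, 1 point per library and a line at each mean, in Cort_CON_ND (n = 5), EtOH_CON (n = 10), Cort_ATGLi (n = 14) and EtOH_ATGLi (n = 10). Fkbp5 is high in both corticosterone groups, and the means of Sparc, Itgb5 and Lonrf1 are lowest in Cort_CON_ND and highest in EtOH_CON. Cort_CON_Db is not shown.

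How reads were shared between overlapping genes is not known for several named genes, of which 3 overlap another counted gene on the same strand. Of 99 named genes placed on the GENCODE annotation of GRCm38, 13 overlap another counted gene on the opposite strand (among them Atp2a1, Dbp, Des, Glul, Hspb6, Ndufa3, Nmrk2, Pcolce, Pfkfb3, Plin4, Pnkd and Rps28), and whether the counting used strand is not given.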

How the data were processed

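The authors deposited a table of read counts per gene for 48 libraries (Lexogen QuantSeq, 50-base forward reads). Per the submitters' processing notes, the build was GRCm38 and the tools included DESeq2 1.24.0 in R 3.6.1. No aligner, counter or strand setting is given in the sources used here. Only even counts occur in 47 of the 48 deposited columns, for a reason that is not stated; if 1 fragment gave 2 counts, counting error is larger than the totals imply, and halved counts were tried as an alternative.

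All results were computed from these counts with edgeR 4.0.16 (R 4.3.3, limma 3.58.1): genes were kept by filterByExpr (minimum count 10, minimum total 15; 12592 of 14125 kept, 1533 removed), library sizes were scaled by TMM, and 5 groups (Cort_CON_ND, Cort_CON_Db, Cort_ATGLi, EtOH_CON and EtOH_ATGLi) were fitted together with robust quasi-likelihood, so that the spread is shared across all 48 libraries. A gene was called at a Benjamini-Hochberg adjusted p under 0.05. SE is the log2 fold change divided by the square root of its F statistic. Symbols were matched for 14094 genes. Groups were taken from the treatment and disease-state labels. The named genes were the 12 largest rises and 12 largest falls among called genes averaging at least 5 CPM, a set of glucocorticoid, atrophy and lipid genes, and the 2 members of each of the 37 gene lists with the smallest p; other members are examples. The members and lists were chosen with earlier results of these data known.

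The totals of 11576776 to 20316002 counts in the 15 libraries make counting error small for abundant genes, whose precision is set by the spread between libraries. For genes at a few CPM counting error adds to that spread, more so if 1 fragment gave 2 counts. The median SE over all genes tested was 0.172 on the log2 scale. The scripts were tested on simulated data. Alternatives were RLE and upper quartile scaling, no filter, a mean of at least 5 CPM, DESeq2 1.42.0, limma voom, halved counts, a fit of only the groups compared, leaving out p32 and p33, and leaving out each library. Insulin was compared by an exact permutation test. The numbers of the libraries do not pair the groups. A few list members are counted but not reported here by name.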

Additional observations from a re-analysis of the deposited data

Results flagged for a closer look

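Values that stood apart from their own group were sought in 90 tests over 43 genes, glucose and insulin in each group, at a level that chance meets in about 1 in 20 groups, and 11 were found. That level assumes a normal spread, and the values were not put on a log scale. Tests of genes in the same library are not independent. In Cort_CON_ND, fed glucose was 242 in p36 and 131 to 145 in the other 4. Library p49 had 5.07 CPM of Cilp2, with 1.52 to 2.43 in the others, and 5.24 CPM of Col15a1, with 1.79 to 2.43 in the others. Library p33 had 762 CPM of Fbxo32, with 473 to 534 in the others.

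In EtOH_CON, library p10 was high for Mt1 at 83.6 CPM (others 26.8 to 50.5), Mt2 at 100.2 CPM (others 17.1 to 33.5) and Lep at 8.37 CPM (others 1.31 to 3.45). Library p12 was high for Ddit4 at 106 CPM (others 4.74 to 30.8) and Tsc22d3 at 253 CPM (others 122 to 182). Library p01 was low for Klf9 at 80.0 CPM (others 291 to 455) and high for Col15a1 at 30.8 CPM (others 18.7 to 23.3).

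The corticosterone response differed between the diets, by the test of the difference itself, in 5 genes, given as the log2 response on the control diet minus that on atglistatin: Fkbp5 at 1.15, Pnkd at 0.87, Lonrf1 at -0.99, Itgb5 at -0.63 and Sparc at -0.84. The corticosterone mice on the control diet were chosen by their label, and diet and that choice cannot be told apart.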

How the results depend on the processing

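No paired analysis was possible because the Cort_CON_ND libraries share no replicate number with any other group. Cort_CON_ND against EtOH_CON gave 2856 calls in all, and between 1994 (of 7631 genes averaging at least 5 CPM) and 3010 (DESeq2) under the other scalings, filters, tools and fits. Without p32 and p33 it gave 900 higher and 959 lower. Leaving out 1 library at a time gave 1110 (without p29) to 1350 higher and 1231 (without p29) to 1480 lower genes, 0 to 2 higher and 0 to 0 lower genes against Cort_CON_Db, and 0 (without p32) to 5 higher and 1 (without p32) to 3 lower genes for the difference between diets; the insulin difference ran from 20.1 to 27.4. For the diets, DESeq2 called 5 higher and 5 lower, and the fit of only those groups called 4 higher. Of 2367 values of named genes against EtOH_CON under the alternatives, 2321 kept their call, 38 lost it and 8 gained it, and no called value changed sign; 13 of the losses came without p32 and p33, among them Fbxo32, Klf15, Pnpla2, Plin2, Bnip3 and Kdr. Of 1776 list counts, 115 moved by over 1.5 times. With only the groups compared, Ighm (adjusted p = 0.0862) and Klf9 (adjusted p = 0.0563) lost their calls. At the lower depth of halved counts, no named gene that was still tested lost its call. The causes of these changes were not tested.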

Other observations

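Of 21 heat shock and chaperone genes, 7 rose and 1 fell: Hspb7, a small heat shock protein of striated muscle, averaged 161 ± 34.5 CPM in Cort_CON_ND and 67.3 ± 18.9 CPM in EtOH_CON (log2 fold change 1.26, SE 0.33, adjusted p = 0.00383), and Cryab, alpha-B crystallin, averaged 1774 ± 441 CPM in Cort_CON_ND and 986 ± 186 CPM in EtOH_CON (log2 fold change 0.85, SE 0.18, adjusted p = 0.000465), while Hspb8 fell by 0.61 on the log2 scale. Hspa1a and Hspb6 rose by 2.06 and 0.70. Hspa1a is almost identical to Hspa1b, and how shared reads were counted is not given. Without p32, 5 rose and 2 fell.

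Of 16 neuromuscular junction and denervation genes, 4 rose and 1 fell, with Dok7, which activates the receptor kinase of the junction, at 19.4 ± 5.79 CPM in Cort_CON_ND and 10.4 ± 1.5 CPM in EtOH_CON (log2 fold change 0.90, SE 0.14, adjusted p = 1.22e-06) and Chrnb1, an acetylcholine receptor subunit, at 16.3 ± 2.5 CPM in Cort_CON_ND and 10.1 ± 2.01 CPM in EtOH_CON (log2 fold change 0.69, SE 0.15, adjusted p = 0.000511). Without p32 and p33, 2 rose. Over all genes tested in the main fit, 11% rose and 11.7% fell. Of 7 satellite cell and myogenic markers, 3 rose and 1 fell, and Cdh15, M-cadherin, averaged 15.5 ± 1.88 CPM in Cort_CON_ND and 8.94 ± 1.62 CPM in EtOH_CON (log2 fold change 0.79, SE 0.16, adjusted p = 0.000195); 1 rose without p32 and p33. None of 8 Schwann cell and none of 5 erythroid markers was called by edgeR, with 2 and 1 of them at an unadjusted p under 0.05. Without p36, 2 Schwann cell markers were called lower, and in the fit of only the groups compared the erythroid gene Hbb-bs was called at an adjusted p of 0.0207.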
